A study of Saccharomyces cerevisiae with 6 samples.

Results

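In a compact genome many genes end tail to tail, so that a transcript that runs past its own end enters the neighbour from the other side. The genes described here were those with such a close convergent neighbour in budding yeast. A gene was taken if its name marked it as a nuclear open reading frame, if it had 1 annotated exon of 1000 to 3999 bp (end minus start), if nothing on the other strand overlapped it, and if the nearest feature beyond its 3' end lay on the opposite strand within 500 bp. The annotation alone made this choice, and 1404 of 7126 genes met it. The distance to the neighbour ran from 3 to 500 bp with a median of 206.0 bp and quartiles of 133.0 and 295.0 bp. Of the 1404 genes, 712 lay on the plus strand and 692 on the minus strand, and 688 of them formed 344 mutual pairs in which each gene was the other's neighbour. The neighbour was an open reading frame for 1347 genes, a tRNA gene for 43, a snoRNA or snRNA gene for 10 and another feature for 4.

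Transcription by RNA polymerase II normally stops shortly after the poly(A) site, and between convergent genes the 3' untranslated regions often meet or overlap. Antisense RNA over a gene can come from read-through of the neighbour, from starts inside the gene body, or from starts at its ends. Spt6 is a histone chaperone that travels with the polymerase and restores nucleosomes behind it, and casein kinase 2 is a protein kinase that phosphorylates Spt6 among many other proteins. In yeast, loss of Spt6 function is known for transcription from cryptic starts within genes.

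Total RNA of 3 groups of 2 libraries each was compared. All strains were haploid mat a cells of S288C background with bar1 deleted and with leu2 and lys2-128δ alleles, taken at an OD600 of 0.5 from YPD cultures at 30 °C and then held at 39 °C for 2 h. The wild type (WT, YAN1104) carried bar1D::NAT and, at ura3-52, an insert of HHF1, a galactose promoter, FLAG-HHT1 and URA3. By its label, the ck2ts strain (YAN1105) carried the same and also cka1Δ0::KanMX6 and cka2D225N::NAT, so that it lacked a catalytic subunit of casein kinase 2 and had an altered form of the other. The spt6-7SA strain (YAN1116) had the chromosomal SPT6 replaced by kanMX6, a centromeric URA3 plasmid with FLAG-spt6 7S-A, IWS1-13MYC::HIS3, bar1D::KanMX6, his3D200 and ura3Δ0, and lacked the histone insert. Comparisons with spt6-7SA therefore cover those marker differences too. The labels give all 3 strains the same leu2 allele, yet sense reads of LEU2 stood at 46.3 and 55.1 CPM in WT, at 47.6 and 48.9 CPM in spt6-7SA and at 0.0155 and 0.0737 CPM in ck2ts, so this locus went against the labels. What else may differ between these strains was not tested. Whether the 2 libraries of a group stem from different cultures is not stated in the labels. Their p-values therefore reflect only how far these samples spread, which may be technical. In such bulk samples fewer cells and less RNA per cell cannot be told apart.

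For CKA1, the deleted gene, the WT libraries held 4970 and 3504 sense reads, the ck2ts libraries 202 and 100, and the spt6-7SA libraries 3289 and 3858. Sense reads per library numbered 56307173 to 83375420 and antisense reads 2799589 to 3876104. Of these, 173778 to 329305 antisense reads per library fell on the 1404 genes. Levels are given as CPM, that is, reads relative to the size of the sense library, so that both strands share 1 scale. The deposited tables hold, beside antisense reads over the whole gene, those in a part at its 5' end and in a part at its 3' end, called antisense-5' and antisense-3' here. The sources used here do not give the extent of these parts. In 3190 genes the parts held a median of 8.82% and 15.0% of the sense reads. The headers name the ends without saying in which direction they count. This was checked on genes outside the set that an annotated feature of the other strand overlaps only in the last or first 20% of their length. Where such a partner had at least 1 CPM of sense reads in WT, a limit set after seeing the data, 19 of 20 genes overlapped at their 3' end had more antisense-3' than antisense-5' WT reads and 0 had fewer, and 5 of 6 overlapped at their 5' end had more antisense-5' reads. With partners of any level the same was true of 49 of 67 and 38 of 105, and 61 of the 105 went the other way. Both strands are found among the genes whose partners reached the limit. From these few genes the ends are taken here in the gene's own direction, with the antisense-3' part facing the convergent neighbour.

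The shortest distances show how little separates such genes. The sequences below run 5' to 3' on the strand of the gene named first, from the reference genome R64 (RefSeq), and hold everything from its stop codon to the reverse complement of the neighbour's stop codon. Capitals mark these codons. They are shown because the antisense-3' values of these genes are described below.
KRE29 to PHM8 (chrV:226852-226860, minus strand): TAAcagTCA
SPC97 to YHR173C (chrVIII:450804-450817, plus strand): TGAacgcggcgTTA
ADY4 to BUR2 (chrXII:590539-590564, minus strand): TAAacataacttgtactctatttTTA
CTF13 to SNO1 (chrXIII:457259-457287, plus strand): TAAaaatgtggaaaaccggcggtattTTA
Longer gaps hold room for 3' end signals, and in yeast UA-rich efficiency elements such as UAUAUA lie upstream of many poly(A) sites. Of 33 genes searched among those ranked below, 19 had the DNA form TATATA in the gap. GDE1, DOA4, HIR2, STE5 and NEO1 were among those without it. The following 30-base windows from 4 gaps with TATATA show it in capitals, on the strand of the gene named, because these genes recur among the results.
UBA2, in the gap to SAC7 (chrIV:1254901-1254930, minus strand): agaaaaggtatcTATATAtttatttaatcg
MTM1, in the gap to GND2 (chrVII:1006166-1006195, minus strand): tgtaaatatagaTATATAgtaaacgaaaag
NOT5, in the gap to LTP1 (chrXVI:691794-691823, plus strand): tttccttttactTATATAattctcatcgtg
NUP145, in the gap to NBP35 (chrVII:341930-341959, plus strand): aattagtagcatTATATAtggtaaaagtgt

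TATATA is its own reverse complement, so a match holds for both genes of a gap. It occurred in 868 of the 1404 gaps (61.8%), against 6.05% of coding stretches of the same lengths taken from the genes' own ends and 59.5% of the gaps of 924 otherwise like genes whose close downstream neighbour lay on the same strand (tandem genes). In the gaps themselves the percentage was 40.7% below 100 bp, 59.9% from 100 to 199 bp, 64.3% from 200 to 299 bp and 73.2% from 300 to 500 bp. In the first WT library the median antisense-3' level per kb of gene was lower with the motif than without it in each of these 4 classes, for example 0.249 against 0.352 CPM per kb in the shortest and 0.0345 against 0.0586 CPM per kb in the longest. In the shortest class both ck2ts libraries (0.375 against 0.304 and 0.439 against 0.366 CPM per kb) and the second spt6-7SA library (0.317 against 0.296) went the other way. Antisense-5' medians of the first WT library, away from the gap, were likewise lower with the motif in each class. They were 0.0400 against 0.0598 CPM per kb in the shortest and 0.0276 against 0.0374 CPM per kb in the longest. Gaps with the motif were also longer within each class (median 75.5 against 66.0 bp in the shortest). This is a description of letters in a window and was not tested.

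In WT, antisense reads in the end parts of these genes lay mostly in the part that faces the neighbour. The share is not corrected for the extent of the parts, which may differ. Sense reads also favoured the 3' part (median 15.0% of sense reads, against 8.82% in the 5' part, in 3190 genes). Summed over the 1404 genes, the antisense-3' level was 713 and 763 CPM in the WT libraries and the antisense-5' level 307 and 324 CPM. Of the reads in both end parts together, 69.9% and 70.2% lay in the 3' part (95% Wilson intervals 69.6 to 70.2 and 69.8 to 70.5, covering counting error only). In the mutants this share was lower in every library, at 50.6% and 57.3% for ck2ts and 52.4% and 52.7% for spt6-7SA. In WT the share was 72.7% and 72.0% for genes of the plus strand and 66.5% and 67.9% for those of the minus strand. The groups did not overlap, and an exact two-sided permutation test gave p = 0.333 for each mutant, the smallest that 2 libraries against 2 can give.

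The sums at the ends moved apart. The antisense-5' level was 315 ± 11.8 CPM in WT, 689 ± 104 CPM in ck2ts and 578 ± 1.63 CPM in spt6-7SA (mean ± SD, n = 2 libraries), which is 2.18 and 1.83 times WT. The antisense-3' level was 738 ± 35.2 CPM in WT, 804 ± 33.2 CPM in ck2ts (1.09 times) and 640 ± 8.03 CPM in spt6-7SA (0.867 times). Between the parts, the level was 1888 ± 33.6 CPM in WT, 3314 ± 345 CPM in ck2ts and 2080 ± 28.5 CPM in spt6-7SA. Over the whole gene ck2ts stood at 1.63 times and spt6-7SA at 1.12 times WT. In the 924 tandem genes the antisense-3' sum was 1.57 and 1.17 times WT and the antisense-5' sum 1.90 and 1.86 times, and their 3' share of 56.9 ± 1.35% in WT compared with 52.2 ± 1.08% in ck2ts and 45.4 ± 0.108% in spt6-7SA. The difference between convergent and tandem genes in this response was not tested.

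**Figure D1:**
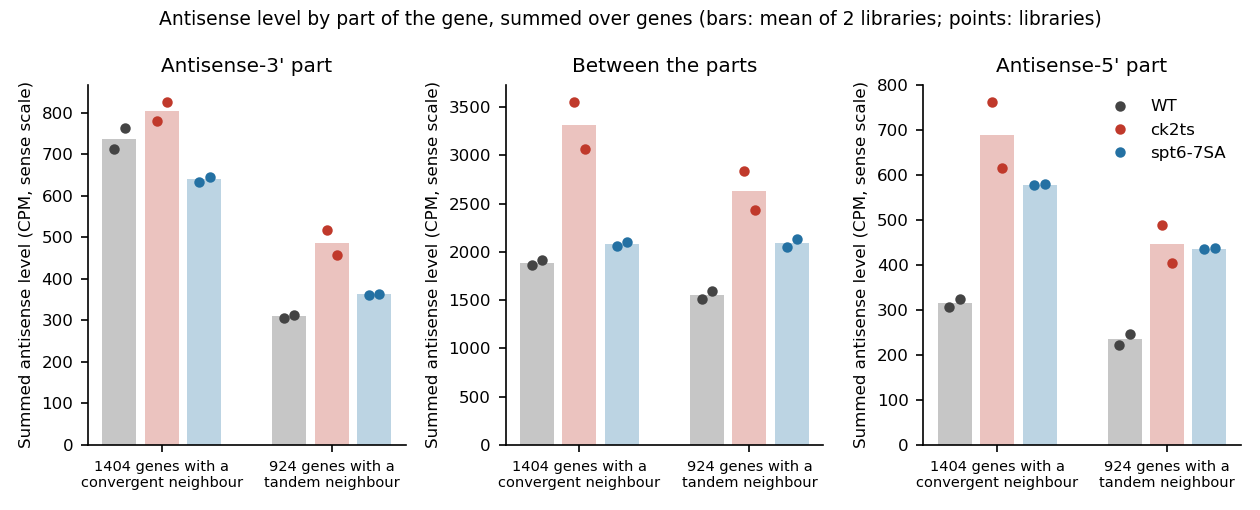
Summed antisense level (CPM on the sense scale, vertical axis) in the 3' part, between the parts and in the 5' part, for the 1404 genes with a close convergent neighbour and the 924 with a close tandem neighbour. Bars are means of 2 libraries and points are libraries; in the convergent genes the 3' part ranges from 634 to 827 CPM over all libraries, while in the 5' part both mutants stand above both WT libraries (307 and 324 CPM).

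The 3' share differed with distance in every group. This gradient, and the link to the neighbour described after it, were also used at first to read which end the part covers, so both are descriptions and no support for that reading. In WT it was 82.6 ± 0.450% for the 182 genes with a gap below 100 bp, 75.6 ± 0.667% for the 491 at 100 to 199 bp, 60.3 ± 0.322% for the 395 at 200 to 299 bp and 55.5 ± 0.897% for the 336 at 300 to 500 bp. In ck2ts the same classes gave 72.2 ± 5.12%, 56.9 ± 5.79%, 42.0 ± 3.06% and 42.3 ± 1.38%. In spt6-7SA they gave 71.2 ± 0.648%, 55.1 ± 0.275%, 43.5 ± 0.511% and 37.2 ± 0.224%. Each mutant library lay below both WT libraries in every class. The antisense-5' sum was above WT in all classes, by 1.95 to 2.64 times in ck2ts and 1.55 to 2.13 times in spt6-7SA, whereas the antisense-3' sum was 0.927 to 1.26 times WT in ck2ts and 0.787 to 0.925 times WT in spt6-7SA. At the 500 bp limit the values were uneven, since 41 genes at 451 to 500 bp had a 3' share of 34.6 ± 1.01% in WT and 26 genes just outside, at 501 to 550 bp, 72.9 ± 2.52%. The 41 genes stood near WT in ck2ts, at 34.2 ± 0.480%, and at 26.6 ± 1.57% in spt6-7SA. The 26 genes stood at 47.1 ± 7.04% and 47.8 ± 1.18%.

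**Figure D2:**
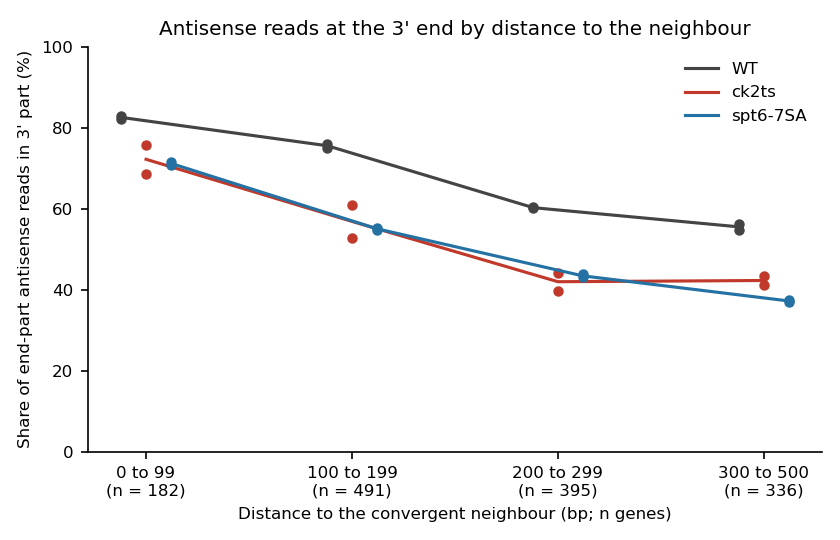
Share of the antisense reads in both end parts that lay in the 3' part (percent, vertical axis) by distance to the convergent neighbour. Points are libraries and lines join the means of 2 libraries; the WT line falls from 82.6% to 55.5% and both mutant lines run below it.

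The antisense-3' level followed the neighbour's own sense level, more so at short distance. Across genes, Spearman's rho between the 2 levels per kb in the first WT library was 0.48 below 100 bp, 0.27 at 100 to 199 bp, 0.24 at 200 to 299 bp and 0.09 at 300 to 500 bp, and for antisense-5' it was 0.14, 0.08, 0.06 and -0.03. Changes behaved in the same way. The rho between the log2 fold change of antisense-3' and that of the neighbour's sense reads was 0.67 (n = 150 genes), 0.57 (n = 295), 0.33 (n = 187) and 0.22 (n = 175) in ck2ts, and 0.74, 0.52, 0.32 and 0.20 in spt6-7SA. For antisense-5' it lay between -0.12 and 0.17 in ck2ts and between -0.01 and 0.26 in spt6-7SA. These are correlations across genes of the same libraries, which share scale and depth, and genes are not independent replicates.

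**Figure D3:**
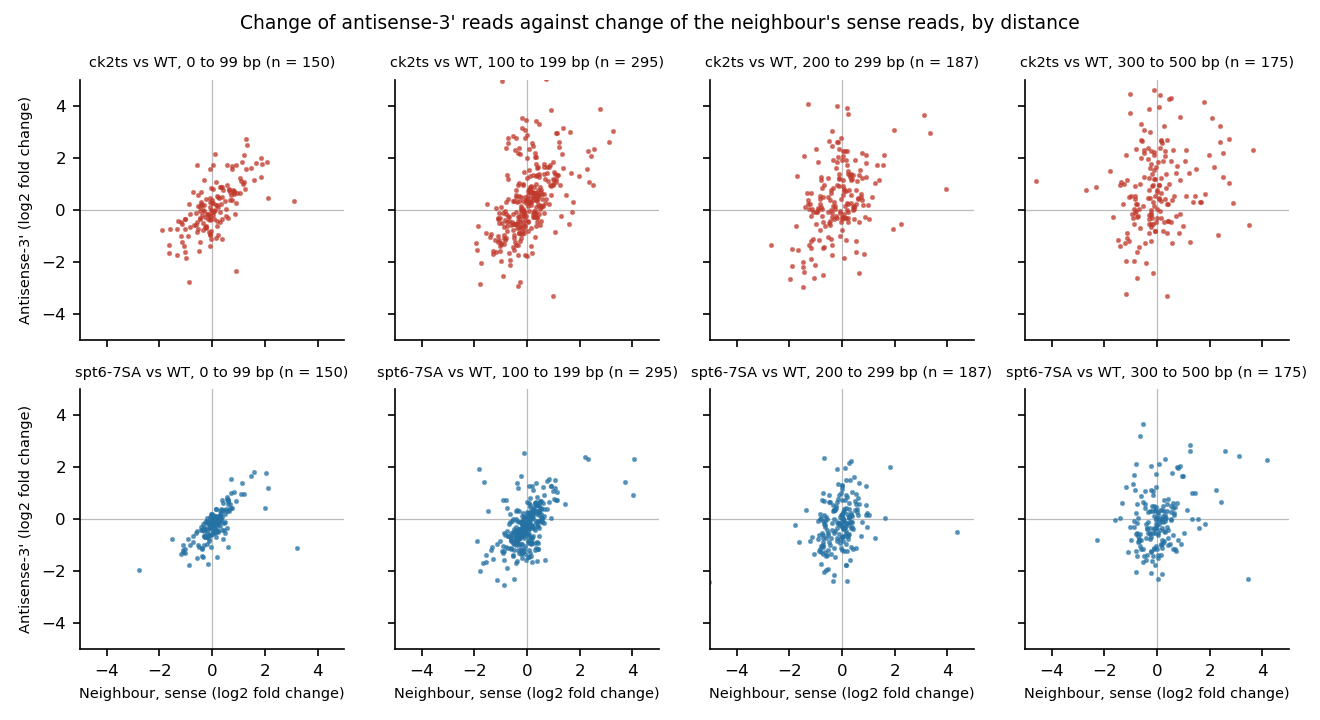
Log2 fold change of antisense-3' reads (vertical) against that of the neighbour's sense reads (horizontal) for ck2ts (upper row) and spt6-7SA (lower row) over WT, by distance to the neighbour. Each point is a gene tested on both counts (8 of 1614 points lie beyond the axes); the points lie along a rising band below 100 bp (rho 0.67 and 0.74) and form a cloud at 300 to 500 bp (rho 0.22 and 0.20).

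Gene by gene, antisense-3' reads of 826 of the 1404 genes passed the filter on low counts. In ck2ts 242 of these rose (29.3%) and 115 fell (13.9%) at an adjusted p of 0.05, against 29.0% and 13.0% of all genes tested. These shares stood near the background, and without the first WT library 17.1% rose and 8.72% fell. Without the second WT library 8.98% fell. In spt6-7SA 53 rose (6.42%) and 79 fell (9.56%), against 10.8% and 8.17% of all genes. These small percentages shifted when either spt6-7SA library or the first WT library was left out (2.13% to 3.09% rose), and 2.87% to 5.30% fell when any WT or spt6-7SA library was left out. Falls came to 15.4% with a minimum count of 30, to 16.9% with the replicate number as a block and to 4.14% with DESeq2. Over all 1404 genes without a filter, both spt6-7SA libraries were above both WT libraries for 18.4% and below them for 31.3%, against 26.9% and 23.0% of all nuclear genes listed on 1 row. In ck2ts the shares were 42.3% above and 20.4% below, against 38.8% and 18.0%. Shares of all genes tested, here and below, are from the main fit to all 6 libraries. Runs without a library or with other settings often tested other numbers of genes. Shares of all genes were not taken for those runs, so their percentages have no background beside them.

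The neighbour often moved with the gene's antisense-3' reads. Of the 242 genes whose antisense-3' reads rose in ck2ts, the neighbour's sense reads rose for 109 and fell for 42. Of the 115 that fell, the neighbour fell for 83 and rose for 8. In spt6-7SA, the neighbour rose for 31 and fell for 6 of the 53 that rose, and fell for 50 and rose for 3 of the 79 that fell. For comparison, 33.1% of the 1403 distinct neighbours rose and 32.5% fell in ck2ts, and 26.1% rose and 26.7% fell in spt6-7SA. On their own sense strand, 80 of the 242 genes rose and 92 fell in ck2ts (33.1% and 38.0%, all 1403 tested 37.4% and 31.1%), and 8 of the 53 rose and 29 fell in spt6-7SA (15.1% and 54.7%, all 27.0% and 26.9%). Of the genes whose antisense-3' reads fell, 57 of 115 rose and 26 fell in ck2ts, and 37 of 79 rose and 14 fell in spt6-7SA.

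Single genes are ranked below among those that passed, whose groups did not overlap, that reached a mean of 1 CPM and that lay apart from loci altered in strain construction. Beside the 8 largest antisense-3' rises in ck2ts, 2 neighbours rose and 1 fell. YDR209C, the neighbour of the first-ranked MSS4, was too low to be tested, and the rest did not pass. Beside the 8 largest in spt6-7SA all 8 neighbours rose.

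The shortest gaps, of 3 bp, were those of SIF2 and KRE29. SIF2 faces YBR103C-A, and neither its antisense-3' (0.312 and 0.242 CPM in WT, 0.170 and 0.0553 CPM in ck2ts, 0.256 and 0.132 CPM in spt6-7SA) nor that neighbour (0.0737 to 0.256 CPM in all libraries) passed in a mutant. KRE29 (YER038C, chrV:226858-228252, minus strand), a subunit of the Smc5-Smc6 complex, faces PHM8, a phosphatase gene induced by phosphate starvation. Its antisense-3' level was 3.75 and 3.95 CPM in WT, 14.5 and 16.3 CPM in ck2ts, and 8.41 and 11.9 CPM in spt6-7SA. Sense PHM8 stood at 29.4 and 34.0, 119 and 110, and 67.9 and 73.0 CPM in the same libraries. Neither measure overlapped between WT and a mutant. The log2 fold changes were 2.00 for antisense-3' and 1.86 for PHM8 in ck2ts (adjusted p = 1.65e-05 and 1.52e-05), and 1.40 and 1.15 in spt6-7SA (adjusted p = 0.000696 and 0.000299). At the other end of KRE29, antisense-5' reads did not pass the test (0.287 and 0.380 CPM in WT, 0.279 and 0.461 in ck2ts, 0.602 and 0.542 in spt6-7SA).

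MTM1 (YGR257C, chrVII:1006205-1007305, minus strand), which encodes a mitochondrial carrier, lies 102 bp from GND2, the minor 6-phosphogluconate dehydrogenase. Its antisense-3' level was 0.698 and 1.19 CPM in WT, 4.37 and 4.48 CPM in ck2ts, and 4.72 and 4.50 CPM in spt6-7SA. GND2 stood at 24.2 and 33.3, 157 and 126, and 150 and 134 CPM. Both mutants were far above WT and close to each other on both counts. The log2 fold changes of antisense-3' were 2.25 in ck2ts and 2.31 in spt6-7SA, beside 2.30 and 2.30 for GND2. Sense reads of MTM1 itself fell by 0.93 on the log2 scale in spt6-7SA (adjusted p = 0.000299) and by 0.22 in ck2ts (adjusted p = 0.0431).

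GDE1 (YPL110C, chrXVI:341068-344739, minus strand), a glycerophosphodiesterase gene, faces the arginase gene CAR1 across 122 bp. Its antisense-3' level went from 0.548 and 0.638 CPM in WT to 3.72 and 2.60 CPM in ck2ts and 3.46 and 2.68 CPM in spt6-7SA. CAR1 went from 75.2 and 91.2 CPM to 199 and 185 CPM in ck2ts and 374 and 379 CPM in spt6-7SA. Both mutants stood apart from WT on both counts, with log2 fold changes of 2.42 and 2.38 for antisense-3' and of 1.21 and 2.18 for CAR1. GDE1 sense reads fell by 1.09 on the log2 scale in spt6-7SA and by 0.37 in ck2ts (adjusted p = 0.0192).

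ACK1 (YDL203C, chrIV:96082-97953, minus strand) lies 295 bp from the reticulon gene RTN2. Antisense-3' was 0.125 and 0.121 CPM in WT, 2.00 and 1.12 CPM in ck2ts, and 0.526 and 0.469 CPM in spt6-7SA, and RTN2 was at 25.1 and 25.8, 285 and 155, and 99.1 and 79.9 CPM. Both measures ran in the order ck2ts, spt6-7SA, WT, with no overlap. Antisense-5' of ACK1 also rose in ck2ts (log2 fold change 3.05, adjusted p = 0.000232) and did not pass in spt6-7SA. The kinetochore gene CTF13 (YMR094W), 23 bp from the vitamin B6 gene SNO1, rose by a log2 of 1.28 in ck2ts and 1.80 in spt6-7SA, beside 1.87 and 2.03 for SNO1. NIC96, a nucleoporin gene 121 bp from YPI1, rose by 1.09 in spt6-7SA (SE 0.23, adjusted p = 0.00615), and no longer passed without the first WT library (0.92, adjusted p = 0.0884).

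SPC97 (YHR172W, chrVIII:448335-450806, plus strand), a gamma-tubulin complex gene, differed between the mutants. It ends 8 bp from YHR173C. Antisense-3' was 0.648 and 0.500 CPM in WT, 0.387 and 0.295 CPM in ck2ts, and 1.85 and 2.24 CPM in spt6-7SA. YHR173C was at 0.760 and 0.759, 0.356 and 0.240, and 2.38 and 2.23 CPM. Only the spt6-7SA libraries stood above WT on both counts. Set directly against ck2ts, spt6-7SA was higher by a log2 of 2.57 (SE 0.29, adjusted p = 3.93e-05).

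Of the 6 largest falls in spt6-7SA, 5 lay beside neighbours that fell. NOT5 (YPR072W, chrXVI:690107-691789, plus strand), a subunit gene of the Ccr4-Not complex, lies 143 bp from the phosphatase gene LTP1. Antisense-3' was 4.40 and 4.83 CPM in WT, 2.54 and 3.83 CPM in ck2ts, and 1.01 and 1.28 CPM in spt6-7SA. LTP1 was at 54.9 and 53.7, 38.2 and 41.6, and 15.2 and 16.1 CPM. In spt6-7SA antisense-3' fell by 2.01 (SE 0.24, adjusted p = 0.000161) and LTP1 by 1.80 on the log2 scale. APN2, an abasic-site endonuclease gene 82 bp from the RNase P gene POP8, fell by 1.94 (SE 0.26, adjusted p = 0.000376) while POP8 fell by 2.77. Antisense of APN2 rose in the 5' part (2.44, adjusted p = 6.81e-05) and over the whole gene (0.54, adjusted p = 0.0298). PMT7, 173 bp from the Mediator gene SRB7, fell by 1.65 while SRB7 fell by 1.57. The exception was SIZ1, a SUMO ligase gene 251 bp from STE14. Its antisense-3' went from 1.84 and 2.21 CPM in WT to 0.647 and 0.718 CPM in spt6-7SA (log2 fold change -1.56, adjusted p = 0.000777), while STE14 was at 42.7 and 43.1 CPM and 47.8 and 59.2 CPM and did not pass. Relative to STE14 the fall was 1.87 (adjusted p = 0.00418). That call was lost without the second WT library (log2 change -1.75) or the second spt6-7SA library (-1.79).

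The neighbours of the 6 largest falls in ck2ts all fell as well, by 0.28 to 1.46 on the log2 scale. YIL092W, 62 bp from the pre-rRNA processing gene UTP25, went from 1.23 and 1.60 CPM to 0.186 and 0.221 CPM (log2 fold change -2.79, SE 0.33, adjusted p = 3.44e-05). The checkpoint gene LCD1, 124 bp from the ribosomal protein gene RPL37B, went from 1.37 and 1.88 CPM to 0.232 and 0.332 CPM (-2.53, SE 0.33, adjusted p = 6.83e-05). YEL025C, 257 bp from SNU13, a protein of the U3 and U4 particles, went from 1.18 and 1.07 CPM to 0.186 and 0.240 CPM (-2.41, SE 0.35, adjusted p = 0.000165). UTP25, RPL37B and SNU13 fell by 0.89, 0.91 and 1.46 on the log2 scale. IRC3, 189 bp from RQC1, went from 0.910 and 1.19 CPM to 0.170 and 0.129 CPM, a log2 fold change of -2.77 beside -0.28 for RQC1. Relative to the neighbour IRC3 fell by 2.48 (adjusted p = 0.000508). The other end differed, as antisense-5' of IRC3 and YEL025C rose by 0.94 and 3.46 (adjusted p = 0.00600 and 2.40e-05). Over the whole gene antisense rose for IRC3 (log2 fold change 1.11, adjusted p = 0.000134). It fell for YIL092W (-1.34), LCD1 (-2.04) and YEL025C (-0.65).

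Antisense-3' was then set against the neighbour's sense reads in 1 model. It was fitted to 1797 genes with an opposite-strand neighbour downstream at any distance, the members among them. For 80 genes with that neighbour beyond 500 bp, antisense-3' rose relative to it for 22.5% and fell for 13.8% in ck2ts, and 13.8% and 13.8% in spt6-7SA. Of 798 members tested, antisense-3' rose relative to the neighbour for 176 in ck2ts (22.1%, all fitted genes 18.0%) and fell for 65 (8.15%, all fitted genes 9.46%). In spt6-7SA 24 rose (3.01%, all fitted genes 3.84%) and 33 fell (4.14%, all fitted genes 6.01%). Without the first WT library the 2 percentages in ck2ts were 11.8% and 3.85%, and without the second 14.2% and 3.36%. Without the first ck2ts library 4.57% fell. In spt6-7SA no more than 0.989% rose and 1.21% fell without either WT or either spt6-7SA library.

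By the ranking conditions given above, UBP8, UBA2 and DOA4 showed the largest rises relative to the neighbour in ck2ts. CST6 and CKA2, set aside as lying at altered loci, had larger ones (5.73 and 4.93 on the log2 scale), with CKA1, the deleted gene, as the neighbour of CST6. UBA2 (YDR390C, chrIV:1254937-1256847, minus strand), a subunit gene of the SUMO-activating enzyme, lies 435 bp from the Rho1 regulator SAC7. Antisense-3' was 0.174 and 0.224 CPM in WT, 3.25 and 2.86 CPM in ck2ts, and 0.226 and 0.176 CPM in spt6-7SA. SAC7 was at 154 and 125, 154 and 141, and 188 and 170 CPM. On antisense-3' the ck2ts libraries stood apart. SAC7 did not pass in ck2ts and was higher in spt6-7SA (log2 fold change 0.36, adjusted p = 0.0403). The rise was 3.95 against WT (SE 0.28, adjusted p = 1.15e-06) and 3.87 relative to SAC7 (SE 0.33, adjusted p = 4.03e-05) on the log2 scale, and spt6-7SA was lower than ck2ts by 3.92 (adjusted p = 7.43e-07). Its antisense-5' level was between 0 and 0.0249 CPM in all libraries.

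DOA4 (YDR069C, chrIV:584939-587719, minus strand), a ubiquitin hydrolase gene 293 bp from DOS2, had antisense-3' at 0.0498 and 0.121 CPM in WT, 1.27 and 0.867 CPM in ck2ts, and 0.0301 and 0.0147 CPM in spt6-7SA. DOS2 was at 18.7 and 14.9, 21.5 and 17.3, and 19.0 and 18.5 CPM, so its libraries overlapped between the groups. UBP8 (YMR223W), the SAGA deubiquitinase gene 444 bp from MRE11, went from 0.0498 and 0.121 CPM to 1.29 and 1.14 CPM in ck2ts while MRE11 fell by 0.30. Unlike UBA2, UBP8 also rose in antisense-5' in ck2ts (log2 fold change 4.01, adjusted p = 5.43e-07).

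The largest falls relative to the neighbour included VPS16 and NPR3, whose neighbours rose. VPS16, a HOPS complex gene, faces YPL044C across 269 bp. YPL044C went from 0.274 and 0.259 CPM in WT to 5.47 and 2.77 CPM in ck2ts and 5.64 and 5.42 CPM in spt6-7SA. Antisense-3' of VPS16 was 0.561 and 0.690, 1.38 and 0.793, and 0.511 and 0.366 CPM, and passed in neither mutant. NPR3 faces the meiotic gene RIM4 across 332 bp. RIM4 rose by 2.72 in ck2ts and 1.82 in spt6-7SA, and antisense-3' of NPR3 went from 1.87 and 2.09 CPM to 4.03 and 4.11 in ck2ts and stood at 1.79 and 1.69 in spt6-7SA.

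**Figure D4:**
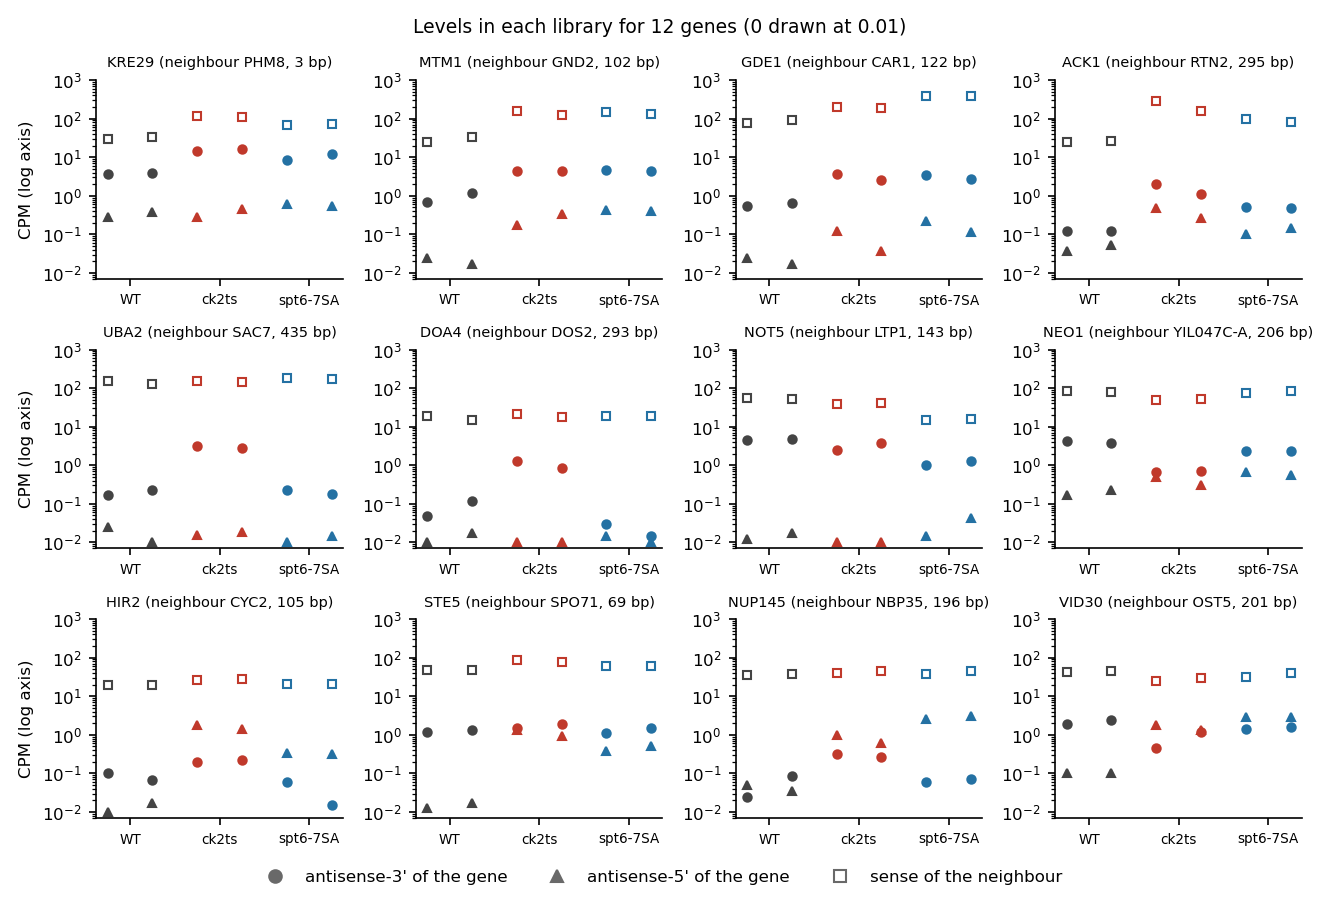
Antisense-3' (circles), antisense-5' (triangles) and the neighbour's sense level (open squares) in each of the 6 libraries for 12 genes (CPM, log axis; 0 is drawn at 0.01). In KRE29, MTM1, GDE1, ACK1 and NOT5 circles and squares move together, of the circles in UBA2 and DOA4 those of ck2ts are raised, and in the lowest row the triangles rise in both mutants.

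The antisense-5' end, away from the convergent neighbour, rose in a larger share of these genes than of all genes tested. Of 867 genes that passed the filter, 572 rose in ck2ts (66.0%, all genes 44.7%) and 50 fell (5.77%, all genes 11.7%). In spt6-7SA 437 rose (50.4%, all genes 38.6%) and 26 fell (all genes 5.91%). Without the first WT library 30.0% rose in spt6-7SA, without its first library 33.6% and without its second 32.6%. Their falls were 1.11% to 1.78% without the second WT library or either spt6-7SA library. Over all 1404 genes without a filter, both libraries stood above both WT libraries for 923 in ck2ts (65.7%, all nuclear genes listed on 1 row 47.7%) and 830 in spt6-7SA (59.1% against 47.0%), and below them for 9.12% and 8.12% (the same nuclear genes 17.4% and 12.8%). Among tandem genes 58.6% and 55.2% of those tested rose. The shares of all genes tested are no background for the runs without a library, in which other numbers of genes were tested.

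Scaling bears on these counts. With a scale set on the antisense reads themselves, the median of all genes tested moved by -0.76 in ck2ts and -0.74 in spt6-7SA for antisense-5' on the log2 scale. The median of all genes was then 0.05 in ck2ts and -0.06 in spt6-7SA, and that of the members 1.05 and 0.66. Of 856 members tested, 418 rose and 104 fell in ck2ts, and 280 and 89 in spt6-7SA. For antisense-3' in ck2ts 186 then rose and 158 fell, after a shift of the median of all genes by -0.27. That median was then 0.07, and the median of the members 0.05. Shares of all genes called were not taken on this scale.

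HIR2 (YOR038C, chrXV:402761-405388, minus strand), a subunit gene of the HIR histone regulator, ranked first for antisense-5' rises in ck2ts by fitted fold. Its antisense-5' level was 0 and 0.0173 CPM in WT, 1.78 and 1.38 CPM in ck2ts, and 0.346 and 0.308 CPM in spt6-7SA. With 1 WT read or none per library the fitted fold is no bound. Antisense-3' of HIR2 did not pass (0.0997 and 0.0690, 0.201 and 0.221, 0.0602 and 0.0147 CPM). STE5 (YDR103W), the scaffold gene of the pheromone pathway, went from 0.0125 and 0.0173 CPM to 1.33 and 0.922 CPM in ck2ts and 0.391 and 0.498 CPM in spt6-7SA, while its antisense-3' lay between 1.13 and 1.88 CPM in all 6 libraries. LDB19, an arrestin gene, went from 0.0374 and 0.0173 CPM to 1.81 and 1.12 CPM in ck2ts.

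In spt6-7SA the nucleoporin gene NUP145 (YGL092W, chrVII:337906-341859, plus strand) led. Antisense-5' was 0.0498 and 0.0345 CPM in WT, 0.976 and 0.608 CPM in ck2ts, and 2.59 and 3.09 CPM in spt6-7SA. Antisense-3' was 0.0249 and 0.0863, 0.325 and 0.258, and 0.0602 and 0.0733 CPM, and its neighbour NBP35 lay between 36.1 and 44.8 CPM. The antisense-5' rise was 5.97 in spt6-7SA (SE 0.40, adjusted p = 9.15e-10) and 4.15 in ck2ts on the log2 scale. NUP145 sense reads fell in both mutants, by 0.82 and 0.65. SEG2, an eisosome gene, went from 0.0374 and 0.0863 CPM to 1.08 and 1.07 CPM in ck2ts and 2.84 and 2.86 CPM in spt6-7SA. VID30, of the GID ubiquitin ligase, went from 0.0997 and 0.104 CPM to 1.80 and 1.31 CPM in ck2ts and 2.86 and 2.84 CPM in spt6-7SA, while its antisense-3' fell by 1.45 in ck2ts (adjusted p = 0.00475) and did not pass in spt6-7SA.

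Falls in antisense-5' were few. PML39 (YML107C), whose protein acts at the nuclear pore, went from 3.51 and 3.54 CPM in WT to 1.04 and 1.40 CPM in ck2ts and 0.888 and 1.11 CPM in spt6-7SA. Its antisense-3' and its neighbour YML108W, 154 bp away, fell as well, the latter from 40.0 and 37.7 CPM to 17.0 and 16.6 and 17.0 and 18.3 CPM. FAA1, a fatty acid activation gene, went from 2.40 and 2.28 CPM to 0.883 and 0.940 CPM in ck2ts. TEF1, also among the 3 largest falls, has a near-identical copy, TEF2, between which reads could be split, and is uncertain, and its call was lost without either ck2ts library (adjusted p = 0.251 and 0.180).

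The ratio of antisense-5' sums to WT was higher in longer genes. For the 585 genes of 1000 to 1499 bp the sum was 1.61 times WT in ck2ts and 1.27 times in spt6-7SA, and for the 246 genes of 2500 to 3999 bp 3.24 and 3.16 times. The classes between, 1500 to 1999 and 2000 to 2499 bp, gave 2.36 and 3.20 times in ck2ts and 1.95 and 2.55 times in spt6-7SA. The antisense-3' sums were 1.07 to 1.13 times WT in ck2ts and 0.855 to 0.873 times WT in spt6-7SA over the same 4 classes. In ck2ts 56.1% of the tested genes of the shortest class and 80.7% of the longest rose in antisense-5', and in spt6-7SA 34.8% and 75.8%. All genes tested, of any length, gave 44.7% in ck2ts and 38.6% in spt6-7SA. The trend was not tested. Genes outside the set were not split by length, so it is not known to be particular to these genes.

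**Figure D5:**
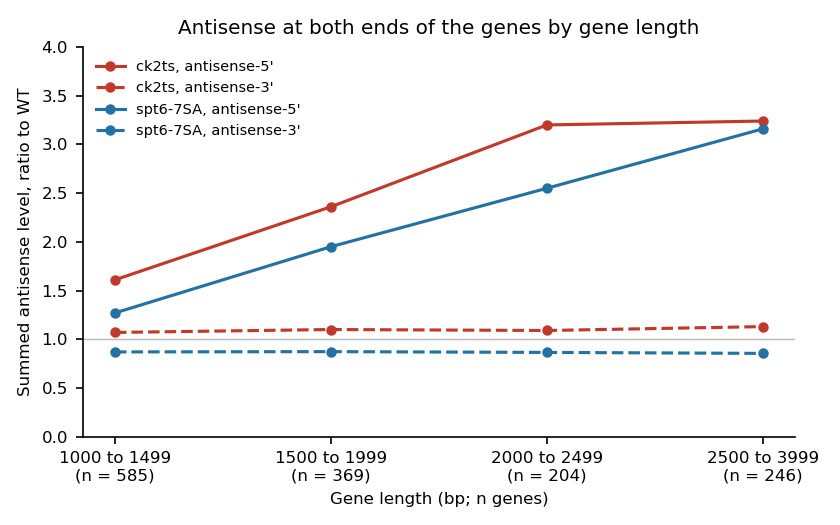
Ratio of the summed antisense level to WT (vertical axis) for antisense-5' (solid) and antisense-3' (dashed) by gene length, for ck2ts and spt6-7SA. The solid lines climb from 1.61 and 1.27 to 3.24 and 3.16, and the dashed lines stay between 0.855 and 1.13.

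Values also differed with the feature upstream. Where the feature before the gene's 5' end lay on the same strand (728 genes) the antisense-5' sum was 2.25 times WT in ck2ts and 2.04 times in spt6-7SA, and where it lay on the opposite strand (676 genes) 2.08 and 1.50 times. In spt6-7SA 59.6% and 38.7% of the tested genes of these classes rose in antisense-5' (all genes tested 38.6%). Genes outside the set were not split by the feature upstream. Antisense-3' sums differed less, at 1.10 and 0.875 times WT against 1.08 and 0.861 times. By kind of convergent neighbour, the WT 3' share was 72.3 ± 0.462% with an open reading frame, 29.2 ± 3.41% with a tRNA gene and 86.6 ± 1.62% with a snoRNA or snRNA gene (n = 2 libraries; 1347, 43 and 10 genes). Without MEP3, an ammonium permease gene that held most of the WT antisense reads in the end parts of the tRNA class, the share of that class was 37.1 ± 2.85%. In ck2ts the share of the tRNA class was not lower than in WT, at 32.4 ± 0.472%, or 40.9 ± 0.205% without MEP3. In spt6-7SA it was 26.7 ± 0.236% and 28.7 ± 0.542%. With an open reading frame it was 55.0 ± 4.97% in ck2ts and 53.6 ± 0.211% in spt6-7SA, and with a snoRNA or snRNA gene 69.3 ± 2.78% and 74.8 ± 2.45%. The 10 genes with a snoRNA or snRNA neighbour had an antisense-3' sum of 20.9 ± 0.742 CPM in WT, 12.1 ± 0.423 CPM in ck2ts and 13.1 ± 0.534 CPM in spt6-7SA. MEP3 had 36.7 and 23.4 CPM of antisense-5' in WT, more than any other of the named genes.

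The balance of the ends was tested within genes as the change of antisense-3' against antisense-5', which no scaling alters. Of 1135 genes tested, the balance shifted from the 3' to the 5' part for 293 in ck2ts (25.8%, all genes 20.4%) and 283 in spt6-7SA (24.9%, all genes 22.3%). It shifted towards the 3' part for 30 (2.64%, all genes 4.15%) and 8 (0.705%, all genes 1.39%). Shifts to the 5' part numbered 15.5% in ck2ts without the first WT library and 16.9% without the first ck2ts library. In spt6-7SA they numbered 12.8% without the first WT library or its own first library and 13.4% without its second. Shifts to the 3' part came to 1.22% in ck2ts without the first WT library, and in spt6-7SA to at most 0.346% without any of the WT or spt6-7SA libraries. CNA1, a calcineurin gene 218 bp from the nucleotide synthesis gene IMD3, showed the largest such shift in ck2ts (log2 change -6.87, SE 0.70, adjusted p = 9.87e-20). Its antisense-3' went from 1.55 and 1.67 CPM to 0.139 and 0.387 CPM, and its antisense-5' from 0.0374 and 0.0173 CPM to 0.681 and 0.442 CPM, so the ends exchanged rank.

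Set directly against each other, the mutants differed at both ends. Antisense-3' was lower in spt6-7SA than in ck2ts for 221 of 826 genes (26.8%, all genes 21.4%) and higher for 44 (5.33%, all genes 9.22%). Antisense-5' was lower for 248 of 867 (28.6%, all genes 18.3%) and higher for 102 (11.8%, all genes 16.3%). Over the whole gene, 705 of 1387 were lower (50.8%, all genes 32.5%) and 105 higher (7.57%, all genes 15.1%). Without the first or second spt6-7SA library the antisense-3' falls came to 13.3% and 12.8%, and the antisense-5' falls to 12.9% and 12.8%, with 17.6% without the first ck2ts library. The rises came to 1.80% to 2.77% of antisense-3' without the first ck2ts or either spt6-7SA library, and to 4.29% to 7.10% of antisense-5' without the second ck2ts or either spt6-7SA library. Whole-gene rises came to 4.51% without the second spt6-7SA library. NEO1 (YIL048W), a flippase gene 206 bp from YIL047C-A, had antisense-3' at 4.22 and 3.76 CPM in WT, 0.681 and 0.719 CPM in ck2ts, and 2.32 and 2.37 CPM in spt6-7SA, 3 levels without overlap.

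Over the whole gene, 895 of 1387 tested genes rose in ck2ts (64.5%, all genes 48.3%) and 112 fell (8.07%, all genes 13.8%). In spt6-7SA 446 rose (32.2%, all genes 31.2%) and 143 fell (10.3%, all genes 10.5%), near the background; the falls came to 6.80% without the second WT library, 5.58% without the first spt6-7SA library and 5.94% without the second. On the antisense scale 715 of 1391 rose and 248 fell in ck2ts, and 343 rose and 270 fell in spt6-7SA. The median log2 fold change of the members was then 0.72 in ck2ts (all genes 0.07) and 0.05 in spt6-7SA (all genes -0.01). Shares of all genes called were not taken on that scale. Among the tandem genes 66.3% and 47.3% rose. The median whole-gene antisense level per kb was lower in the convergent than in the tandem genes in all 6 libraries, by 0.10 to 0.54 on the log2 scale (exact two-sided sign-flip test over libraries, p = 0.0312, the smallest possible). For antisense-3' this difference ran from -0.55 to 0.02 (mean -0.26, same exact test, p = 0.0625). It reversed when both sets were limited to gaps within 250 bp (mean 0.36, exact p = 0.0312), and was -0.00 among genes with a mean of at least 30 antisense reads. The libraries measured the same genes each time, and the sign-flip test pooled libraries of different strains. Its p-values therefore show only how steady the sign was over these libraries. They cannot decide whether convergent and tandem genes differ.

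On the sense strand the genes stood near the background. In ck2ts 525 of 1403 rose (37.4%, all genes 32.5%) and 437 fell (31.1%, all genes 32.3%), and in spt6-7SA 379 rose (27.0%, all genes 26.7%) and 378 fell (26.9%, all genes 24.1%; 16.6% without its first library).

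The highest WT antisense-3' levels, in CPM not scaled to the length of the part, belonged to CBF5, FOB1, NSE1, MEP3 and ADY4. CBF5 (YLR175W), the snoRNA-guided pseudouridine synthase, stood at 18.6 and 9.85 CPM in WT and 5.75 and 2.97 CPM in ck2ts (adjusted p = 0.0245), and its higher spt6-7SA library was at 8.41 CPM (adjusted p = 0.145). Its neighbour RFX1 rose in both mutants (0.82 and 0.52), while CBF5 sense reads fell by 1.46 and 0.83. FOB1, the rDNA fork block gene, was at 14.5 and 11.3, 12.1 and 9.18, and 11.6 and 9.18 CPM and passed in neither mutant. NSE1, 174 bp from the import motor gene PAM18, fell in ck2ts from 8.50 and 14.0 CPM to 2.99 and 4.68 CPM (log2 fold change -1.56, adjusted p = 0.00262), and PAM18 fell from 90.8 and 91.5 to 23.3 and 24.9 CPM. ADY4, 20 bp from the kinase cyclin gene BUR2, was at 8.67 and 10.1, 5.73 and 6.93, and 6.20 and 6.74 CPM, beside BUR2 at 55.8 and 62.9, 34.2 and 42.7, and 35.7 and 41.3 CPM.

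Of the 1404 genes, 9 are, or face, a locus altered in strain construction and are read apart. CKA2, whose allele in ck2ts is marked with NAT, had antisense-3' at 0.0623 and 0.0690 CPM in WT and 6.01 and 7.28 CPM in ck2ts. Without these 9 genes the 3' share differed from WT by -16.7 percentage points in ck2ts and -17.8 in spt6-7SA, against -16.1 and -17.5 with them.

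Genes of the machinery that ends, clears or limits such transcripts were read from 3 lists on the sense strand. Of all genes tested, 32.5% rose and 32.3% fell in ck2ts, and 26.7% and 24.1% in spt6-7SA. Of 28 genes of 3' end processing and termination, 3 rose and 14 fell in ck2ts (median log2 fold change -0.29, all genes 0.02) and 3 rose and 10 fell in spt6-7SA (median -0.18). SYC1 and SSU72, of the cleavage and polyadenylation factor, went from 15.0 ± 0.229 to 3.63 ± 0.209 CPM and from 17.1 ± 0.999 to 5.32 ± 0.380 CPM in ck2ts (adjusted p = 1.52e-05 and 2.24e-05). In spt6-7SA the poly(A) polymerase gene PAP1 rose by 0.54 (adjusted p = 0.00215) and REF2 fell by 0.61. Of 25 genes of the nuclear exosome, TRAMP, Xrn1 and related decay factors, 0 rose and 21 fell in ck2ts (median -0.82), and 0 rose and 15 fell in spt6-7SA (median -0.34). The exosome gene RRP4 went from 120 ± 3.17 to 51.4 ± 0.0253 CPM in ck2ts and 68.7 ± 0.871 CPM in spt6-7SA. The helicase gene MTR4 fell from 376 ± 7.36 to 148 ± 10.5 CPM in ck2ts. Of 24 factors that limit antisense and cryptic transcription, 7 rose and 7 fell in ck2ts (median 0.11) and 3 rose and 3 fell in spt6-7SA (median 0.07). The histone methyltransferase gene SET2 fell by 0.77 in ck2ts, and SPT21, a histone gene regulator, rose by 0.94 in ck2ts and 0.71 in spt6-7SA.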

How the data were processed

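Counts are those deposited by the authors: whole-number reads per exon on the sense and antisense strand, and for a 5' and a 3' part of it. Hot phenol extraction, rRNA depletion with Ribo-Zero Gold and stranded TruSeq libraries read from 1 end come from the labels' protocols. Per the submitters' processing notes, Trimmomatic, BWA and SAMtools were used with genome build R64, and per the labels' protocols Ensembl release 77 exons; the sources used here give no versions or settings. Rows were summed per gene. Coordinates were identical in the reference for all 1403 genes matched by locus tag.

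Antisense counts were scaled by sense library sizes and TMM factors. Each part was fitted over all genes and 6 libraries with the edgeR 4.0.16 quasi-likelihood test (R 4.3.3; robust; filterByExpr, minimum count 10), with Benjamini-Hochberg adjustment and a threshold of 0.05. Antisense-3' was set against antisense-5', and against the neighbour's sense reads, in models with library as block. Interaction fits took genes with a mean of 10 reads. The levels per kb that compare convergent with tandem genes used 0.5 added reads, and those for the motif and the rho values none. The tests were run on simulated counts first. Exact permutation and sign-flip tests used Python 3.11.15. The common biological coefficient of variation of antisense-3' was 0.192. Sequences came from the reference genome (Biopython 1.88), figures from matplotlib 3.10.9.

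The members, lists and rules were chosen with earlier results of these data known. Named genes were, per mutant, the 8 largest antisense-3' rises and 6 largest falls, and the 3 largest in each direction of antisense-5', of antisense-3' against antisense-5' or the neighbour, and between the mutants, that passed, did not overlap and reached 1 CPM; also the 5 highest in WT and the 3 shortest gaps. Of these the text gives those that show a pattern. DESeq2 1.42.0, its size factors, filters, an antisense scale, distance limits, the replicate number as a block and omission of each library were tried.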

Additional observations from a re-analysis of the deposited data

How the results depend on the processing

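The share of antisense reads in the 3' part was lower than in WT under every alternative run for it. Without a library the difference was -19.5 to -12.7 percentage points in ck2ts and -17.7 to -17.3 in spt6-7SA. Among alternatives chosen after seeing the data, omission of the 10 genes with most reads gave -17.5 and -19.8, and open reading frame neighbours alone -17.3 and -18.8. Of 70 results for named genes, 57 kept their call under every alternative run, 13 lost it under at least 1 and 0 reversed. Depth limits the single genes that can be called: antisense-3' reads of 826 of the 1404 genes passed the filter. Other values below are percentages of the members tested in that run, whose number often differed between runs. Shares of all genes were not taken for these runs, and the cause of each move was not tested.

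With DESeq2, antisense-3' gave 18.9% rises and 8.47% falls in ck2ts, 3.34% and 4.14% in spt6-7SA, and 2.66% and 13.4% between the mutants. Antisense-5' falls were 3.34% and 1.61% in the 2 mutants, and between them 6% rose and 15.2% fell. The 3' against 5' balance rose for 1.32% and fell for 14.5% in ck2ts, and for 0% and 13.8% in spt6-7SA. Against the neighbour, 5.01% and 2.51% fell. With a minimum count of 30, antisense-3' falls in spt6-7SA were 15.4% and rises between the mutants 8.28%, and for antisense-5' these were 4.95% and 17.9%. Without a filter, antisense-3' against the neighbour rose for 14.5% and fell for 4.17% in ck2ts, and for 1.44% and 1.72% in spt6-7SA. Without a library block 6.64% fell there, and within 250 bp 1.12% rose. The convergent minus tandem difference reversed within 250 bp (0.36). On the antisense scale, antisense-5' falls were 12.1% in ck2ts, and in spt6-7SA 32.7% rose and 10.4% fell. Whole-gene falls were then 17.8% and 19.4%, and rises between the mutants 13.0%.

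Deviations of same-numbered libraries correlated at 0.351, 0.294 and 0.395 for sense and 0.245, 0.122 and 0.125 for antisense-3' reads, but the labels tie the numbers to nothing. With the replicate block, antisense-3' falls in spt6-7SA were 16.9%, and against the neighbour 4.89% rose and 7.64% fell. The block changed no call of a named gene.

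Ranges without a library were as follows. Antisense-3' rises were 17.1% to 27.3% in ck2ts, 2.13% to 7.14% in spt6-7SA and 1.80% to 5.19% between the mutants, and falls 8.72% to 12.7%, 2.87% to 12.6% and 12.8% to 26.7%. Antisense-5' rises were 47.6% to 62.9%, 30.0% to 49.7% and 4.29% to 11.6%, and falls 3.85% to 4.49%, 1.11% to 3.42% and 12.8% to 27.5%. Whole-gene rises were 55.6% to 65.5%, 22.7% to 33.8% and 4.51% to 8.71%, and falls 6.01% to 8.21%, 5.58% to 12.2% and 36.0% to 53.0%. The 3' against 5' balance rose for 1.22% to 2.83% and 0% to 1.02%, and fell for 15.5% to 26.9% and 12.8% to 27.2%. Against the neighbour, 11.8% to 22.6% and 0.220% to 3.79% rose, and 3.36% to 6.69% and 0.548% to 5.80% fell. Sense rises were 32.5% to 35.1% and 18.0% to 27.1%, and falls 27.5% to 30.9% and 16.6% to 28.8%. The convergent minus tandem difference was -0.32 to -0.20.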
